A study of Rattus norvegicus with 6 samples.

Results

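The genes described here are the WNT ligands, their frizzled and LRP receptors, the secreted inhibitors, and the R-spondin, LGR and Axin2 genes that set or report the strength of the signal. The rule is one of gene symbols and uses no measured value, though earlier results of these data were known when it was set: Wnt, Fzd, Sfrp and Dkk genes with a number, and Frzb, Wif1, Axin2, Lgr5, Lgr6, Rspo1, Rspo2, Rspo3, Lrp5 and Lrp6. Of 18825 genes in the table, 46 matched: 18 ligands, 12 receptors, 10 secreted inhibitors, 5 R-spondin or LGR genes and Axin2. Messenger RNA came from 6 dorsal skin wounds of male Sprague-Dawley rats, made diabetic by a diet rich in fat and sucrose and then streptozotocin, a toxin of pancreatic beta cells. All were full-thickness skin wounds. The control group held 3 untreated wounds. The other group held 3 wounds treated with DST-MNs, microneedles that carry spheroids of dental pulp stem cells regulated by spermidine, a polyamine, and TGF-β3, a growth factor. The effects of the needles, the cells and both agents cannot be told apart in this design, because the controls had no needles, and the labels give no age of the rats and no day of collection.

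WNT proteins are lipid-modified signals that act over short distances. They bind a frizzled receptor together with LRP5 or LRP6, which spares β-catenin from destruction and lets it drive target genes through TCF and LEF factors; other WNT proteins, WNT5A among them, act mainly without β-catenin on cell shape and movement. SFRP, FRZB and WIF1 proteins bind WNTs outside the cell, DKK proteins of the classical kind block LRP5 and LRP6, and R-spondins act through LGR receptors to keep frizzled receptors on the cell surface. In skin the pathway is known for starting and renewing hair follicles, for the upkeep of the epidermis and for the behaviour of dermal fibroblasts in repair.

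Library totals ran from 12545206 to 13818548 counts. Fibroblast genes were abundant in all 6 libraries, with a summed level of 68200 to 116000 normalised CPM (counts per 1000000 after TMM scaling) over 10 of 10 listed markers, and none of them was at 0 in any control. The basal keratinocyte list (9 genes) summed to 420 to 697 CPM in controls and to 4660, 805 and 2020 CPM across DST-MNs 1 to 3. The hair follicle list (15 genes) summed to 4.81 to 30.0 CPM in controls and to 1790, 21.6 and 39.7 CPM across DST-MNs 1 to 3, so DST-MNs 1 stood apart, and 9 of the 15 were at 0 in at least 1 control. The differentiated keratinocyte list (10 genes) summed to 6.60 to 42.3 CPM in controls and 65.4 to 765 CPM after treatment. The sebaceous gland list (10 genes) summed to 94.1, 23.4 and 50.2 CPM across controls 1 to 3 and to 770, 730 and 815 CPM across DST-MNs 1 to 3. In it 9 of 10 genes were above all controls in each treated library, as were 1857 of all 14427 genes tested. Of the list, edgeR called 4 as higher (background 0.658%): Awat1, Awat2, Elovl4 and Cyp2b12. In this list 4 of the 10 genes had under 10 counts in every control, as had 174 of all 14427 genes tested. Such genes entered the test only through their treated libraries. The marker lists were also set with earlier results of these data known, so these shares are no separate support. The dermal papilla list (10 genes) summed to 549 to 1190 CPM in controls and 332 to 445 after treatment, most of it Vcan, and the endothelial list (8 genes) to 1660 to 1940 and 1210 to 1540 CPM. Skeletal muscle genes summed to 15.5 and 311 CPM in controls 2 and 3, against 4800 to 6900 CPM in the other 4 libraries. The part of these cell types in the WNT results was not tested. In whole tissue, fewer cells of a type and less RNA per cell cannot be told apart.

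The promoters of 31 of the 46 genes were found in the RefSeq table of the build GRCr8, and 250 bases before the start of each were searched for the TCF and LEF recognition words CTTTGAT and CTTTGAA on both strands. A match was present in 2 of the 31 (6.45%), Axin2 and Dkk1, against 2537 of 33469 rat promoters (7.58%). Those of Axin2 and Dkk1 are shown because they hold the match, although Dkk1 had almost no counts and Axin2 was counted in every library. The promoters of Wnt10a and Lgr6 are shown beside them because both genes were highest in the library with the highest sum of follicle markers and hold no match. Sequences run 5′ to 3′ on the strand of the gene and end at the base before its start, and capitals mark the matched words. They lie at chr10:94398535-94398784 on the + strand (Axin2), chr1:237798651-237798900 on the - strand (Dkk1), chr9:83798344-83798593 on the + strand (Wnt10a) and chr13:49095858-49096107 on the - strand (Lgr6). In Axin2 the matches begin at positions -232 and -132 from the start, and in Dkk1 at -96. A match is a description of these letters and does not show binding.
Axin2: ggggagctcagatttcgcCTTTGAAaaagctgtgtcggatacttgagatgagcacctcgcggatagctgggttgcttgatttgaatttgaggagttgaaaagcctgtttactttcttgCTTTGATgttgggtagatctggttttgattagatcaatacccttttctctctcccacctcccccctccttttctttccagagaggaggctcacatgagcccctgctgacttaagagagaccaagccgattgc
Dkk1: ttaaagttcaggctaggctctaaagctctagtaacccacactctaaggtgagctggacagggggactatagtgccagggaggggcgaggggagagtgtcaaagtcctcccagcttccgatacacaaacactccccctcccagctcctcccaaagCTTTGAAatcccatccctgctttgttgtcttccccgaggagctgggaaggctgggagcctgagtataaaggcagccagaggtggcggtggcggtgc
Wnt10a: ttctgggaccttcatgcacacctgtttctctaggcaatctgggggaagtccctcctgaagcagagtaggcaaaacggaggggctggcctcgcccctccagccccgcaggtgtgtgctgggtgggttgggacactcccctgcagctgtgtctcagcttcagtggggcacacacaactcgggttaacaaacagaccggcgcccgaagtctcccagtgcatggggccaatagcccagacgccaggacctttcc
Lgr6: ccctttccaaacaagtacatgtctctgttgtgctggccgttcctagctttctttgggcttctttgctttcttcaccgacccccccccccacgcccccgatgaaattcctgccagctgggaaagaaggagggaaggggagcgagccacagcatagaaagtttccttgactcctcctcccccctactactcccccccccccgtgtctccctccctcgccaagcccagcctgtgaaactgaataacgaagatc

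No WNT gene passed the test of treated against control wounds over all genes. Of the 46, 34 had enough counts to be tested, and 0 had a Benjamini-Hochberg adjusted p below 0.05 in edgeR's quasi-likelihood test, where 0.776% of all 14427 genes tested did. An unadjusted p below 0.05 was reached by 10 of the 34, against 16.7% of all genes. Of these 10, 7 were higher after treatment (background 9.80%): Wnt10a, Wnt6, Fzd6, Fzd10, Lgr5, Lgr6 and Axin2. The other 3, Sfrp1, Sfrp4 and Fzd1, were lower (background 6.88%). The Wald test of DESeq2 called 7 of the 34 (7.06% of all genes): Axin2, Lgr5, Lgr6, Fzd6 and Wnt10a as higher (background 4.34%), and Sfrp1 and Fzd1 as lower (background 2.72%). It gave no adjusted p for Fzd10.

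The treated and control libraries did not overlap for 10 of the 34 tested genes, where 22.9% of all genes tested did not overlap. Treated libraries were above the controls for Fzd6, Dkk2, Rspo1, Lgr5, Lgr6 and Axin2 among these, and below them for Fzd1, Fzd2, Sfrp1 and Sfrp4. In TPM, a comparison added after seeing the data, 7 of the 34 (20.6%) did not overlap, all of them among these 10. Fzd1, Fzd2 and Sfrp4 did overlap. On that scale 24.2% of all genes tested did not overlap, 3043 of them higher and 444 lower after treatment, against 1857 and 1448 in normalised CPM. The median log2 change was 0.42 over the 34 and 0.00 over all genes tested. Without DST-MNs 1 the median over 34 genes was 0.14. DST-MNs 1 was the highest of the 6 libraries for 16 of the 34, and for 20.5% of all genes tested.

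**Figure D1:**
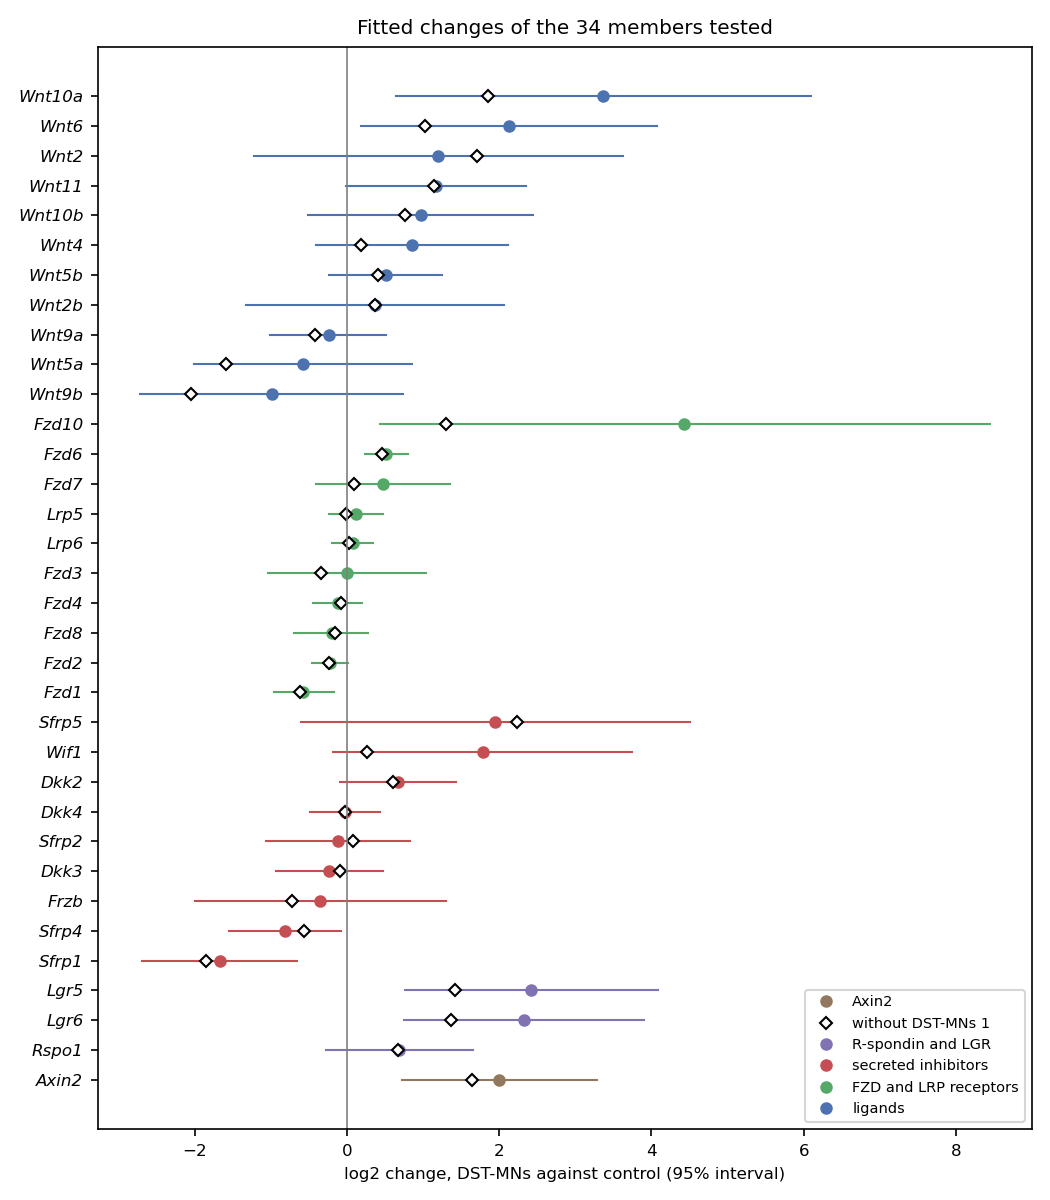
Log2 change (x axis, DST-MNs against control) of each of the 34 tested genes (y axis), with its 95% interval as a line, coloured by role; open diamonds give the change fitted without DST-MNs 1. Sfrp1 is lowest at -1.67 and Fzd10 highest at 4.43, and the diamonds of Wnt10a, Wnt6, Fzd10, Wif1, Lgr5 and Lgr6 lie closer to 0 than their circles.

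Among the ligands, Wnt5a, Wnt4 and Wnt9a had the highest levels per length, at means of 13.1, 9.18 and 7.45 TPM over the 6 libraries. These are a ligand of the route without β-catenin and ligands known from skin and limb development. Of the 18 ligand genes 11 were tested, and the groups overlapped for all 11, where 22.9% of all genes tested did not overlap. Among the 7 ligands not tested, Wnt3, Wnt3a and Wnt16 had every treated library above all controls. Summed over the 18, ligand transcripts stood at 41.8, 41.2 and 28.3 TPM across controls 1 to 3 and at 92.9, 38.1 and 42.3 TPM across DST-MNs 1 to 3. The sum was thus high in 1 treated library, with the other 2 treated libraries within or just above the control range.

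Wnt5a (gene ID 64566) stood at 72.3, 86.9 and 42.6 normalised CPM across controls 1 to 3 and at 90.1, 26.0 and 18.8 across DST-MNs 1 to 3. DST-MNs 1 was the highest of all 6 libraries and the other treated libraries were the lowest. The log2 change was -0.58 ± 0.60 (SE; edgeR adjusted p = 0.667), and -1.59 without DST-MNs 1 (adjusted p = 0.179). It was smaller without control 2 (-0.36), DST-MNs 2 (-0.29) or DST-MNs 3 (-0.20). The share of Wnt5a in ligand transcripts ran from 33.9% to 46.8% in controls and was 25.2%, 17.1% and 10.3% across DST-MNs 1 to 3. Wnt4 (84426), a ligand of the epidermis and of several developing organs, had 15.2, 20.6 and 8.79 CPM in controls and 46.5, 22.2 and 11.9 after treatment. Its groups overlapped, and its log2 change of 0.86 ± 0.53 (SE) was 0.19 without DST-MNs 1. Wnt9a (287357) had a log2 change of -0.24 ± 0.32 (SE; edgeR adjusted p = 0.741), or 0.12 without control 1 and -0.44 without control 3.

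Wnt10a (316527), a β-catenin ligand that the epidermis and its appendages need, stood at 0.773, 0.0776 and 0.311 CPM across controls 1 to 3 and at 9.36, 0.587 and 2.28 across DST-MNs 1 to 3. DST-MNs 2 lay below control 1, so the groups overlapped. Its log2 change was 3.37 ± 1.14 (SE; edgeR adjusted p = 0.222), and 1.85 without DST-MNs 1. Wnt6 (316526), the gene next to Wnt10a among protein-coding genes of the RefSeq annotation, showed the same order of treated libraries, with 4.95, 0.587 and 1.65 CPM across DST-MNs 1 to 3 against 0.311 to 0.773 in controls. Its log2 change was 2.13 ± 0.81 (SE, edgeR adjusted p = 0.265), and 1.02 without DST-MNs 1. Wnt10b (315294) had 0.311 to 2.02 CPM in controls and 1.54 to 2.89 after treatment, with a log2 change of 0.97 ± 0.62 (SE; edgeR adjusted p = 0.474), and 0.52 without control 2 and 1.62 without control 3.

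Among the 7 ligand genes with too few counts for the test, Wnt3 (24882), a β-catenin ligand of epidermis and limb, had 3, 1 and 3 counts across controls 1 to 3 and 215, 5 and 55 counts across DST-MNs 1 to 3. All treated libraries were above all controls, by 2 counts in the case of DST-MNs 2. It failed the filter because of DST-MNs 2, and a fit without that filter gave a log2 change of 5.08 (edgeR adjusted p = 0.164). Its close relative Wnt3a (303181) had 1 count in the controls together and 21, 3 and 15 across DST-MNs 1 to 3 (adjusted p = 0.148 without the filter). Wnt16 (500047), a ligand of keratinocytes and bone, had 2 counts in the controls together and 35, 4 and 14 after treatment (adjusted p = 0.149 without the filter). For each of the 3 genes DST-MNs 1 was highest and DST-MNs 2 lowest among treated libraries. The basal keratinocyte, differentiated keratinocyte and hair follicle sums had the same order. So did the sum of an adipocyte list (8 genes), at 1530, 1100 and 1310 CPM across DST-MNs 1 to 3. A link between these orders was not tested. Wnt7b had 6, 5 and 2 counts in controls and 32, 1 and 8 after treatment, and Wnt7a and Wnt1 at most 4 counts in any library. Wnt8b had 0 counts in all 6 libraries, which allows up to 3 counts, or 0.217 to 0.239 CPM before TMM scaling, in each.

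**Figure D2:**
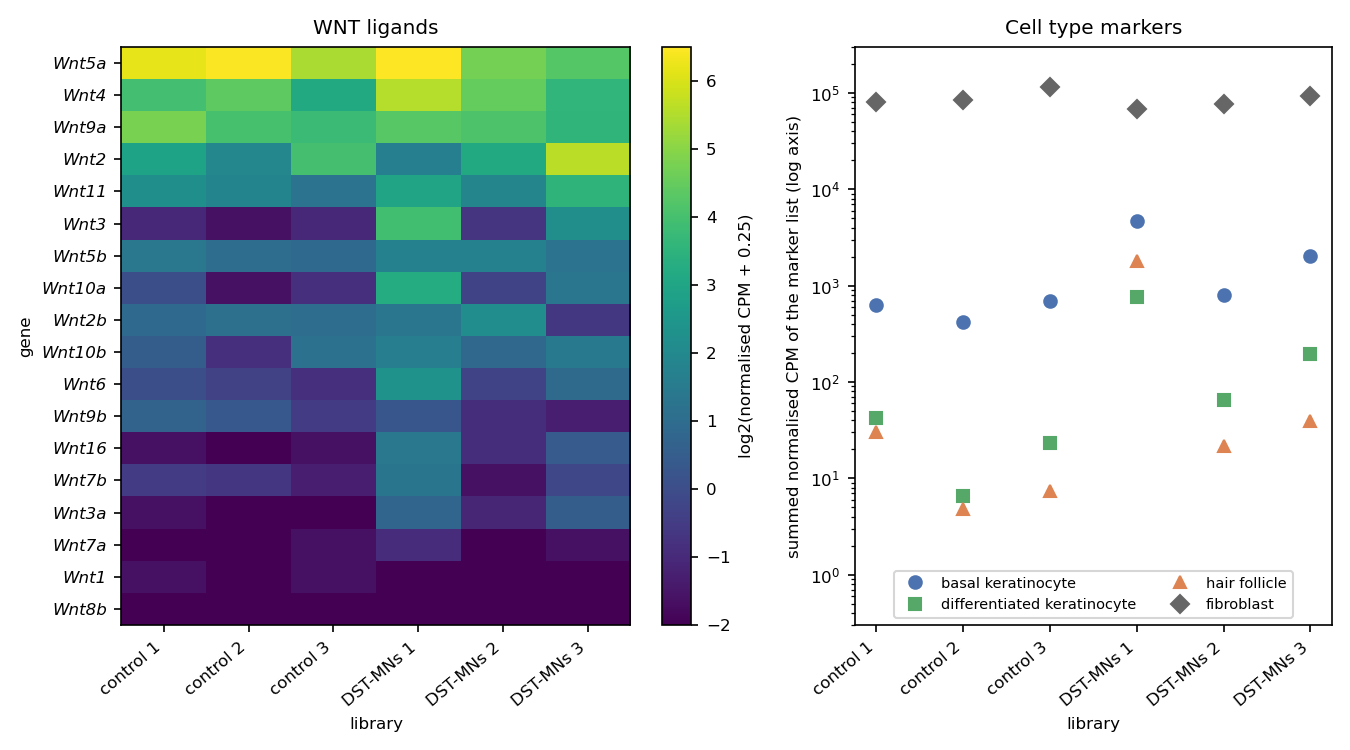
Left, log2(normalised CPM + 0.25) of the 18 WNT ligand genes (rows) in the 6 libraries (columns). Right, summed normalised CPM of 4 marker lists per library on a log axis. The keratinocyte and hair follicle sums are highest in DST-MNs 1 (hair follicle 1790 CPM), while the fibroblast sum stays between 68200 and 116000 CPM. The ligands Wnt3, Wnt10a, Wnt6, Wnt16, Wnt7b, Wnt3a, Wnt4, Wnt5a, Wnt5b, Wnt10b and Wnt7a are also highest in DST-MNs 1.

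Of the 12 receptor genes, Fzd1, Fzd2 and Fzd6 had the highest levels, at 43.4, 31.2 and 20.1 TPM, and Lrp6 and Lrp5, the co-receptors of the β-catenin route, stood at 15.3 and 12.4 TPM. Fzd6 (282581), a receptor known for the orientation of hairs across the skin, stood at 45.4, 47.9 and 52.8 CPM across controls 1 to 3 and at 74.2, 62.2 and 72.4 across DST-MNs 1 to 3. All 3 treated libraries were above all controls. The log2 change was 0.52 ± 0.12 (SE; edgeR adjusted p = 0.125), and between 0.46 and 0.60 with any 1 library left out. DESeq2 called it (adjusted p = 0.0149).

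Fzd1 (58868), a receptor of the β-catenin route, had 140, 187 and 167 CPM across controls 1 to 3 and 117, 125 and 91.7 across DST-MNs 1 to 3. All treated libraries lay below all controls, with a log2 change of -0.57 ± 0.17 (SE; edgeR adjusted p = 0.181; DESeq2 adjusted p = 0.0337). Fzd2 (64512), a close relative of Fzd1 and Fzd7, had 41.4 to 43.4 CPM in controls and 34.4 to 37.5 after treatment. The log2 change was -0.22 ± 0.10 (SE; edgeR adjusted p = 0.321). These groups did not overlap in normalised CPM, but in TPM DST-MNs 1, at 32.43, was above controls 1 and 2, at 31.88 and 31.21. Fzd1 overlapped in TPM as well, with 41.14 and 42.07 in DST-MNs 1 and 2 against 40.53 in control 1. Fzd7, the third of these relatives, had 5.25, 5.51 and 9.02 CPM in controls and 13.3, 7.85 and 6.28 in treated wounds, which overlapped (log2 change 0.47, or 0.09 without DST-MNs 1).

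Fzd10 (363913) was almost confined to 1 library. It stood at 0.927, 0 and 0.156 CPM across controls 1 to 3 and at 22.1, 0.807 and 1.02 across DST-MNs 1 to 3. Both other treated libraries were close to control 1. The log2 change of 4.43 ± 1.68 (SE; edgeR adjusted p = 0.263) was 1.30 without DST-MNs 1 and 6.52 without control 1. The co-receptors Lrp5 and Lrp6 had log2 changes of 0.12 (95% interval -0.23 to 0.48) and 0.08 (-0.20 to 0.35), and Fzd4, also the receptor of norrin in vessels, one of -0.12 (-0.45 to 0.20). Fzd8 and Fzd3 had changes of -0.20 ± 0.20 (SE) and 0.00 ± 0.43 (SE). Fzd5 and Fzd9 had too few counts for the test. Fzd5 had 5, 1 and 0 counts across controls 1 to 3 and 24, 8 and 9 across DST-MNs 1 to 3. Each treated library was above all controls, and a fit without the filter gave a log2 change of 2.58 (edgeR adjusted p = 0.279). Fzd9 overlapped, with 3 to 7 counts in every library.

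Of the summed TPM of the 46 genes, secreted inhibitors made up most in every library. Sfrp2, Sfrp4, Sfrp1 and Dkk3 together took 76.1%, 82.4% and 86.0% of it across controls 1 to 3 and 64.0%, 83.1% and 75.8% across DST-MNs 1 to 3. Mean levels over the 6 libraries were 450 TPM for Sfrp2, 277 for Sfrp4, 67.2 for Sfrp1 and 58.9 for Dkk3. The first 3 are SFRP proteins that fibroblasts are known to secrete, and DKK3 is a divergent DKK protein.

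**Figure D3:**
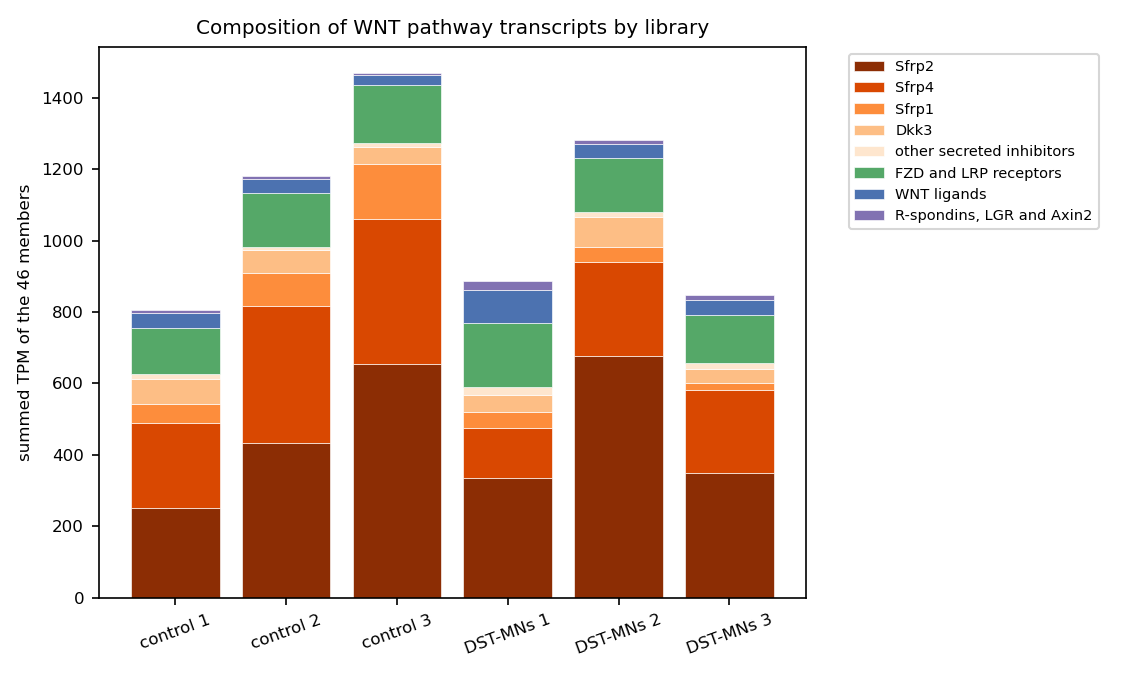
Summed TPM (y axis) of the 46 genes in each library (x axis), split by gene or role. Sfrp2 is the largest block in every library, Sfrp1 is thinner in the treated libraries than in the controls, and the ligand block is tallest in DST-MNs 1 at 92.9 TPM.

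Sfrp1 (84402) had 157, 271 and 434 CPM across controls 1 to 3 and 110, 107 and 53.9 across DST-MNs 1 to 3. All treated libraries lay below all controls, and the controls differed among themselves by more than the distance between control 1 and the treated libraries. Means were 287 ± 139 and 90.0 ± 31.3 CPM (SD, n = 3), a log2 change of -1.67 ± 0.43 (SE; edgeR adjusted p = 0.151). With 1 library left out the change ran from -1.97 to -1.25 and the adjusted p from 0.0519 to 0.376, and DESeq2 called the gene (adjusted p = 0.000835). Sfrp4 (89803) had 365, 573 and 571 CPM in controls and 176, 350 and 333 after treatment. These groups did not overlap, though DST-MNs 2 and control 1 were close, and in TPM DST-MNs 2, at 264.19, was above control 1, at 238.5. Its log2 change was -0.81 ± 0.31 (SE; edgeR adjusted p = 0.263), or -0.56 without DST-MNs 1, and DESeq2 did not call it (adjusted p = 0.0649).

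Sfrp2 (310552), the most abundant of the 46 genes, had 357, 599 and 861 CPM across controls 1 to 3 and 390, 823 and 465 across DST-MNs 1 to 3. The groups covered nearly the same range. The log2 change was -0.12 (95% interval -1.06 to 0.83, edgeR adjusted p = 0.907), and ran from -0.49 without DST-MNs 2 to 0.22 without control 3. Dkk3 (171548) also overlapped, with 174 to 278 CPM in controls and 154 to 285 after treatment (log2 change -0.23, SE 0.30, adjusted p = 0.737), and its change ran from -0.57 without DST-MNs 2 to -0.08 without control 1. Dkk2, which binds the LRP co-receptors, stood at 7.03, 3.18 and 5.60 CPM in controls and at 8.94, 8.37 and 7.85 after treatment. These groups did not overlap, at a log2 change of 0.67 ± 0.32 (SE; edgeR adjusted p = 0.349), or 0.40 without control 2.

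Wif1 (114557), a secreted protein that binds WNT ligands directly, had 1.70, 1.32 and 0.933 CPM across controls 1 to 3 and 10.5, 1.32 and 1.88 across DST-MNs 1 to 3. It was high in DST-MNs 1 alone among the treated libraries. The log2 change of 1.79 ± 0.83 (SE; edgeR adjusted p = 0.338) was 0.27 without that library. Sfrp5 had its highest level in DST-MNs 3, at 6.20 CPM, with 1.69 to 1.79 in the other treated libraries and 0.0778 to 2.16 in controls (log2 change 1.95, SE 1.07; 4.29 without control 1 and 1.06 without DST-MNs 3). Frzb had at most 1.40 CPM in any library and a log2 change of -0.35 ± 0.69 (SE), or 0.14 without DST-MNs 3. Dkk4 had a log2 change of -0.03 ± 0.19 (SE). Dkk1, the classical blocker of LRP5 and LRP6, had 1 count over all 6 libraries, in DST-MNs 1.

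Axin2 (29134) encodes a scaffold of the complex that destroys β-catenin, and it is a widely used readout of β-catenin signalling because it is itself a target. It stood at 5.56, 1.94 and 2.57 CPM across controls 1 to 3 and at 19.4, 6.75 and 14.3 across DST-MNs 1 to 3. All 3 treated libraries were above all controls, DST-MNs 2 only narrowly above control 1. Means were 3.36 ± 1.94 and 13.5 ± 6.36 CPM (SD, n = 3), a log2 change of 2.00 ± 0.53 (SE; 95% interval 0.73 to 3.28, edgeR adjusted p = 0.157). The change was 1.64 without DST-MNs 1 and at most 2.57 with another library left out, with adjusted p from 0.0663 to 0.443, and DESeq2 called the gene (adjusted p = 0.00648).

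Lgr5 (299802) and Lgr6 (498233), R-spondin receptors that mark stem cells of the hair follicle, were low in controls and above all controls in each treated library. Lgr5 stood at 2.24, 1.24 and 1.56 CPM across controls 1 to 3 and at 18.0, 2.86 and 6.20 across DST-MNs 1 to 3. Its log2 change was 2.42 ± 0.69 (SE; edgeR adjusted p = 0.172; DESeq2 adjusted p = 0.0111), and 1.42 without DST-MNs 1. Treated libraries 1, 3 and 2 thus ranked from high to low for Lgr5, as for Axin2. Lgr6 stood at 0.618, 1.32 and 1.32 CPM in controls and at 10.7, 3.01 and 2.67 in treated wounds. Here DST-MNs 2 and 3 were close to each other. Its log2 change was 2.33 ± 0.66 (SE; edgeR adjusted p = 0.169; DESeq2 adjusted p = 0.0209), and 1.37 without DST-MNs 1. The sebaceous gland and keratinocyte sums were also above all controls in each treated library. The hair follicle sum overlapped, with DST-MNs 2 at 21.6 CPM below control 1 at 30.0. The part of these cell types in the Lgr5 and Lgr6 values was not tested.

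Rspo1 (313589), a secreted ligand of these receptors, had 5.41, 6.99 and 2.25 CPM across controls 1 to 3 and 8.05, 8.29 and 7.38 across DST-MNs 1 to 3. The treated libraries were close together and all above the controls, DST-MNs 3 only narrowly above control 2. The log2 change was 0.69 ± 0.41 (SE, edgeR adjusted p = 0.44), or 0.35 without control 3 and 1.04 without control 2. Rspo3 had 3, 0 and 1 counts in controls and 11, 3 and 3 in treated wounds, and Rspo2 at most 8 counts in any library. Neither was tested.

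**Figure D4:**
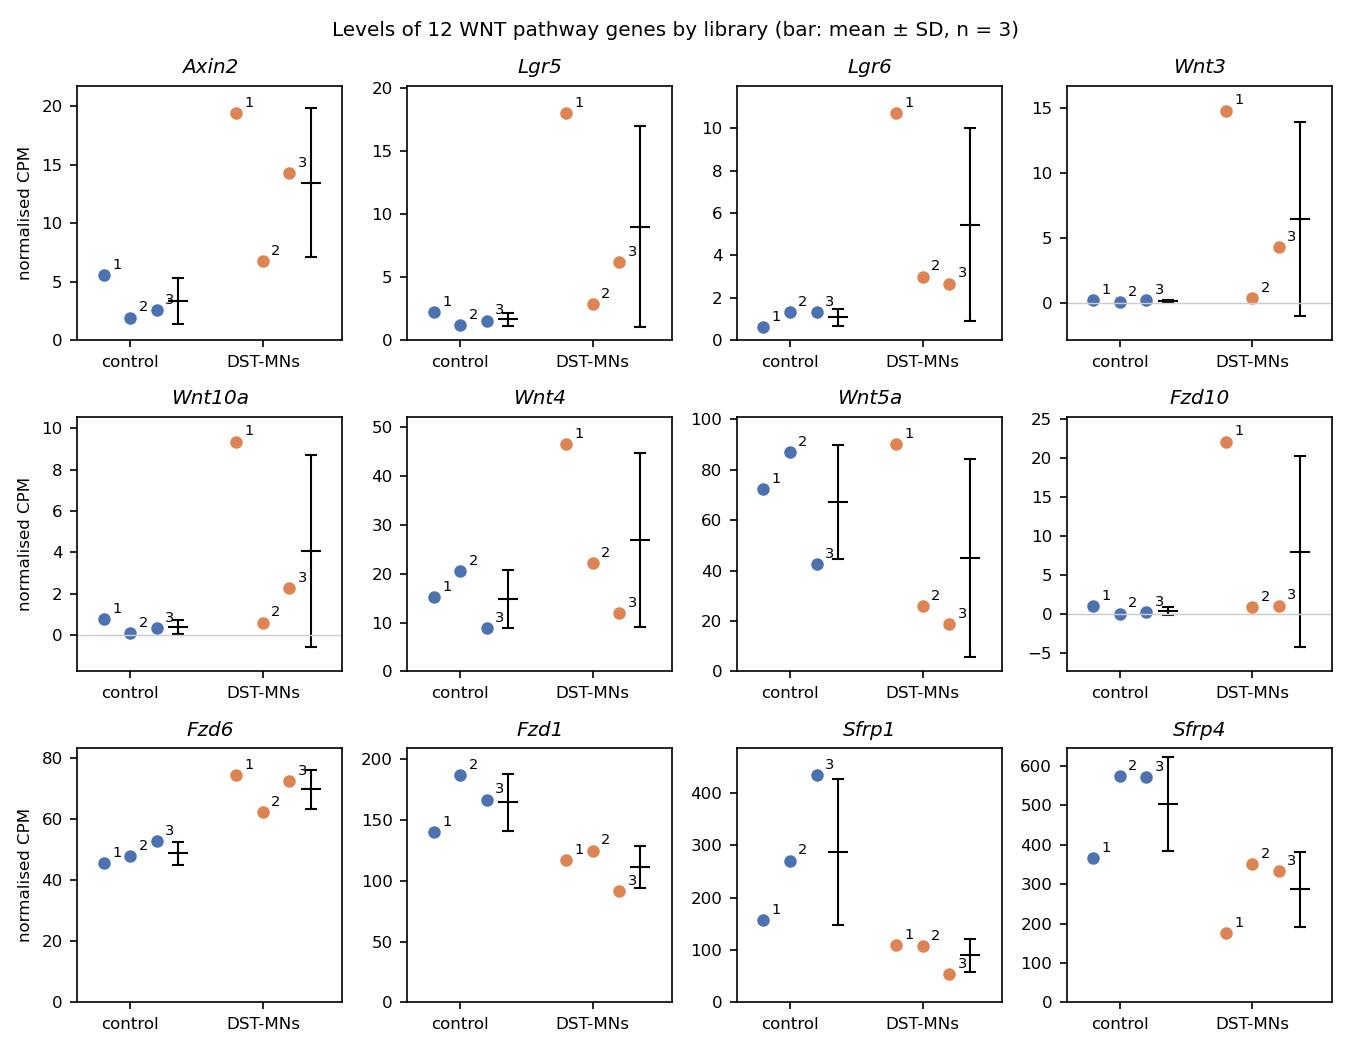
Normalised CPM (y axis, linear) of 12 genes in the control (blue) and DST-MNs (orange) libraries, numbered by replicate, with the mean and SD (n = 3) beside each group; SD bars that pass below 0 reflect spread, not values. Axin2, Lgr5, Lgr6 and Wnt3 sit above the controls in all treated libraries and Sfrp1, Sfrp4 and Fzd1 below them, while Fzd10 is high in DST-MNs 1 only, at 22.1 CPM.

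Of 88 other genes of the pathway, chosen by role, 79 were tested and 0 passed edgeR's test over all genes. The unadjusted p was below 0.05 for 12 (7 higher and 5 lower), where 16.7% of all genes reached it, and DESeq2 called 6 (4 higher and 2 lower), where it called 7.06% of all genes. Both shares are close to those over all genes. The median log2 change of the 79 was 0.05. In the class of secretion and matrix handling (7 of 8 tested), Porcn, the acyltransferase that adds the lipid WNT proteins need, had 16.1, 13.8 and 12.6 CPM in controls and 33.7, 25.8 and 42.6 after treatment. All treated libraries were above all controls, and the log2 change was 1.27 ± 0.21 (SE; edgeR adjusted p = 0.0634; DESeq2 adjusted p = 6.12e-05), also 1.27 without DST-MNs 1. Sulf1, which trims sulphate groups of heparan sulphate chains that hold WNTs, had 172, 209 and 198 CPM in controls and 71.8, 120 and 100 after treatment. Its groups did not overlap, at a log2 change of -0.98 ± 0.20 (SE; edgeR adjusted p = 0.106; DESeq2 adjusted p = 0.000178). The glypican Gpc3 had groups that overlapped and a log2 change of 1.41 ± 0.67 (SE), or 2.37 without control 1 and 0.92 without DST-MNs 1.

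Other inhibitors and feedback genes (12 of 17 tested) held Sostdc1, a WNT and BMP antagonist of skin appendages, with 0.773, 0.0776 and 1.40 CPM in controls and 25.1, 4.84 and 11.2 across DST-MNs 1 to 3. Every treated library was above every control, in the order of Axin2 and Lgr5 (log2 change 4.18, SE 0.93, edgeR adjusted p = 0.118; DESeq2 adjusted p = 3.17e-05). Apcdd1, a membrane inhibitor of WNT signalling known from hair loss, had a log2 change of 1.67 ± 0.52 (SE), or 1.00 without DST-MNs 1. Igfbp4, an IGF-binding protein that also antagonises WNT, had one of -0.96 ± 0.33 (SE), and DESeq2 called both. In the planar polarity class, where 13 of 13 were tested, the cadherins Celsr2 and Celsr1 had log2 changes of 4.18 ± 0.83 (SE; edgeR adjusted p = 0.0965) and 4.79 ± 1.44 (SE; edgeR adjusted p = 0.187), or 3.11 and 2.91 without DST-MNs 1. DESeq2 called Celsr2 only, and the formin Daam1 was at 0.51 ± 0.19 (SE).

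All 16 transducers, such as the dishevelled, GSK3 and APC genes, were tested, with log2 changes from -0.33 to 0.42 and 0 at an unadjusted p below 0.05. Their smallest p values belonged to Dvl1 (0.38, SE 0.18), Csnk1e (0.25, SE 0.13) and Apc2 (0.42, SE 0.23). Among 12 nuclear factors the co-repressors Tle1 and Tle4 had changes of 0.59 ± 0.21 (SE) and 0.40 ± 0.20 (SE). Lef1, the partner of β-catenin in follicle matrix cells and also a target, stood at 2.94, 2.72 and 0.778 CPM in controls and at 37.2, 1.54 and 3.93 across DST-MNs 1 to 3. It was high in DST-MNs 1 only, and its log2 change of 2.73 ± 1.20 (SE) was 0.34 without that library.

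Of 16 listed targets 12 were tested, with 8 log2 changes above 0 and 4 below, and 2 had an unadjusted p below 0.05, both lower: Myc, a growth regulator with many inputs besides WNT, at a log2 change of -0.72 ± 0.26 (SE; edgeR adjusted p = 0.248), and Ccn4, a matricellular target in fibroblasts, at -0.66 ± 0.27 (SE; edgeR adjusted p = 0.296). For both genes all treated libraries lay below all controls in normalised CPM, but the groups overlapped in TPM. Among the log2 changes above 0, Msx2 at 3.39 and Dlx3 at 3.52 were -0.98 and -2.43 without DST-MNs 1. Ccn5 turned the other way, from -0.28 to 0.08. The median of the 12 was 0.32, or 0.09 without that library. The 4 targets not tested had few counts in controls. Rnf43 had 6, 1 and 2 counts in controls and 77, 8 and 11 across DST-MNs 1 to 3. Tnfrsf19 had 3, 2 and 0 against 73, 8 and 5. In both, each treated library was above all controls. Notum (0, 1 and 1 against 41, 1 and 0) and Sp5 (3, 2 and 0 against 9, 4 and 2) overlapped. Among the other receptors, 11 of 13 were tested with 0 at an unadjusted p below 0.05; Kremen1, a DKK receptor, was at -0.41 ± 0.22 (SE), Ryk at -0.26 ± 0.13 (SE) and Rspo4, in DST-MNs 1 at 12.7 CPM and in the other 5 libraries at no more than 1.41, at 2.47 ± 1.29 (SE), or -0.14 without DST-MNs 1.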

How the data were processed

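The authors deposited 1 table of 18825 genes with 4 kinds of value per library. Per the file headers, the authors' estimated counts are unscaled reads assigned to a gene; they were rounded here. The TPM values, per the file headers, are scaled by gene length to a common total and were used for levels between genes and for 2 alternatives. The FPKM values and the normalised counts (a signal made by dividing counts by 1 factor per library), deposited by the authors per the file headers, were not used. Reads were handled against mRatBN 7.2, per the submitters' processing notes; which aligner and counter were used is not given in the sources used here. The 46 genes had only whole counts. How reads shared by similar genes were divided is not given.

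Genes were kept by filterByExpr at a minimum count of 10 (14427 genes), scaled with TMM factors and tested with the quasi-likelihood test of edgeR 4.0.16 in R 4.3.3, with Benjamini-Hochberg adjustment over all genes at 0.05. The standard error is the size of the log2 change divided by the square root of F, and 95% intervals use the fitted degrees of freedom. Depth was 12545206 to 13818548 counts a library, and the limit for a count of 0 covers counting error only. A filter on counts keeps a low gene mainly through the group where it is high, so counts and medians over tested genes leave out low members. The labels call the 3 libraries of a group biological replicates. Columns were matched to samples by library name.

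The genes were matched by symbol, but that rule and the lists were set with earlier results of these data known. Named were genes with an unadjusted p below 0.05, the 3 of each role with the highest mean TPM, and Axin2, Lgr5, Lgr6, Wnt5a, Wnt10a, Wnt10b, Sfrp2, Dkk3 and Wif1, 19 in all, and in each class of other pathway genes up to 3 with the smallest p; other members are given for completeness. Alternatives were other scalings and count filters, DESeq2 1.42.0 (independent filtering at 0.05), voom and trend tests of limma 3.58.1, a replicate block and leaving out each library. The test was checked on simulated counts with known changes. Names of neighbouring genes came from RefSeq annotation of GRCr8. Figures used matplotlib 3.10.9.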

Additional observations from a re-analysis of the deposited data

How the results depend on the processing

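No WNT gene was called by edgeR or limma under any scaling, count filter, replicate block or left-out library tried, and DESeq2 called 7, all of them among the 19 named genes. Over all genes, 112 calls became 1018 with DESeq2, 38 with at least 10 counts in every library, and 402, 34 and 53 without controls 1, 2 and 3 and 23, 34 and 14 without DST-MNs 1, 2 and 3. Among the other pathway genes DESeq2 called 6. Porcn was the 1 call with total counts (adjusted p = 0.0493), where the median of all genes moved to 0.12, and the 1 call on log2(TPM + 1) and on log2(TPM + 0.1) (median 0.12 and 0.13). Of 297 values of named genes under an alternative, 290 kept their direction. These genes were named in part by a small p in the main fit. The alternatives refit the same libraries, so a kept direction is no separate support. Sfrp2, at -0.12, turned to 0.01 with total counts, 0.05 with either TPM offset, 0.22 without control 3, 0.08 without DST-MNs 1 and 0.00 without DST-MNs 3, and Wnt9a to 0.12 without control 1; with 1 library left out their ranges were -0.49 to 0.22 and -0.44 to 0.12. With the replicate number as a block, edgeR called 123 genes and 3 of the pathway list, Celsr2, Celsr1 and Apcdd1. Deviations of same-numbered libraries correlated at -0.02, 0.10 and 0.11, DST-MNs 1 correlated best with control 3 (0.10), and no label ties the numbers to a shared animal or day. Depth limits the low genes: 12 of the 46 fell under the filter. In the smallest library 10 counts are 0.797 CPM before TMM scaling, a measure of its depth and not the cut-off of the filter.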

Other observations

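Dkk4, singled out after its values were seen because they were so even, had 87, 89 and 85 counts across controls 1 to 3 and 96, 92 and 83 across DST-MNs 1 to 3. Its coefficient of variation over the 6 libraries was 2.07% of the mean CPM, and only 4 of 14427 genes tested had a lower one. The SD of its counts, 4.76, was below 9.42, the square root of their mean, which is the spread that counting alone would give. Evenness below counting error cannot measure how stable the level of the gene was. The median was 18.6% over all genes tested and 43.7% over the 34 WNT genes tested.

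Wnt2, a ligand of mesenchymal cells, was also noticed after its values were seen. It had 626 counts in DST-MNs 3 and 43 and 118 in the other treated libraries, against 95, 46 and 200 across controls 1 to 3, so that 1 treated library stood above the others and another below all controls. Its log2 change was 1.20 ± 1.01 (SE; edgeR adjusted p = 0.593), and -0.60 without DST-MNs 3. Wnt11, a ligand of cell movement, was also highest in that library, at 11.2 CPM, with 7.57 and 3.38 in DST-MNs 1 and 2 and 2.10 to 4.40 in controls (log2 change 1.17 ± 0.49 SE; edgeR adjusted p = 0.304). Wnt2b was lowest there, with 5 counts, while DST-MNs 1 and 2 had 33 and 58 and the controls 21 to 25.

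Genes next to each other in the RefSeq annotation of GRCr8 formed 4 ligand pairs. Wnt6 and Wnt10a were both highest in DST-MNs 1. Wnt3 was highest there too, while its neighbour Wnt9b was highest in control 1, at 1.39 CPM, with 0.963, 0.294 and 0.157 CPM in DST-MNs 1, 2 and 3. Wnt3a and Wnt9a differed in the same way, Wnt9a being highest in control 1. Wnt1 had at most 1 count in any library beside Wnt10b.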
